A study of Mus musculus with 6 samples.

Results

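The oligoadenylate synthetase (OAS) genes of the mouse were followed in bone marrow-derived dendritic cells, the cells that grow out of marrow in culture and take on features of dendritic cells. The 8 genes Oas1a, Oas1b, Oas1c, Oas1g, Oas2, Oas3, Oasl1 and Oasl2 were taken by gene symbol from a table of 55487 genes, and all 8 were found. The study set cells labelled NanoCa against Mock cells, whose treatment label is none. NanoCa is taken here to be the lipid nanoparticle with calcium crystals that the series title names together with interferon beta. All samples were labelled as female, from mice aged 4 to 8 weeks, and as 1 batch, with no strain, time of exposure or number of animals given. The protocol text gives NanoCa at 100 μM for all 6 samples, Mock included, and the description of each Mock sample names a column with both words in it, so whether Mock cells received any particle was not settled here. The treatment label was followed.

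OAS proteins are sensors of double-stranded RNA, a product of viral replication. Once bound to it, the active enzymes join ATP into short adenylate chains called 2-5A, a second messenger that leads to RNA decay, a halt in protein synthesis and less viral growth. The genes are classical targets of type I interferon, which signals through its receptor to the transcription factor complex ISGF3 and a promoter motif, the interferon-stimulated response element (ISRE). In dendritic cells this induction forms part of the antiviral state.

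Expression was given as FPKM, that is reads scaled to the length of the gene and to the size of the library. Replicate 3 of each group was a scaled mean of replicates 1 and 2, so 2 libraries per group were used. Their totals were 22793565 to 23991472 reads in NanoCa and 26975437 to 31131990 reads in Mock. The groups also differed in sex-linked transcripts. Xist, the RNA of the inactive X chromosome, had 28052 reads over the NanoCa libraries and 2 over the Mock libraries. In NanoCa, 4 Y-linked genes (Ddx3y, Uty, Eif2s3y, Kdm5d) stood at 29.4% to 40.4% of their Mock level. Their means were 8.90 (Kdm5d) to 34.9 FPKM (Eif2s3y) in Mock, where Xist was nearly absent. In NanoCa they were 2.62 (Kdm5d) to 13.5 FPKM (Ddx3y), beside Xist at 33.4 FPKM. All samples are labelled female, but the Mock libraries held male transcripts and the NanoCa libraries those of both sexes. Whether the groups came from different animals is not given in the labels. This difference in sex-linked transcripts and that of treatment cannot be told apart. Of 11 dendritic cell markers, 3 (Flt3, Zbtb46, Xcr1) were under 1 FPKM in every library, while Itgax, which encodes CD11c, stood at 72.8 to 73.0 FPKM in NanoCa and 115 to 119 FPKM in Mock. The monocyte and macrophage gene Adgre1, which encodes F4/80, was at 414.5 and 422 FPKM in NanoCa and 219.5 and 214 FPKM in Mock.

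All 8 OAS genes were higher in NanoCa than in Mock (limma on log2(FPKM + 1), Benjamini-Hochberg adjusted p under 0.05), where 21.7% of the 11116 genes tested were called higher (33.4% with median-of-ratios scaling) and 71.3% were called in either direction. The groups did not overlap for any of the 8, with both NanoCa libraries above both Mock libraries, which held for 27.4% of all genes tested, and 86.3% did not overlap in either direction. For 7 of the 8, all but Oas1c, the rise was at least 2-fold on that scale, against 5.05% of all genes. The median log2 fold change, NanoCa minus Mock, was 2.30 over the family and -0.17 over all genes tested. Every member passed the filter, a mean of at least 1 FPKM over the 4 libraries, and the lowest member, Oas1c, passed it in each library. A p-value here reflects the spread of these 4 libraries alone, possibly a technical one, since no label says that replicates were separate cultures or animals.

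**Figure D1:**
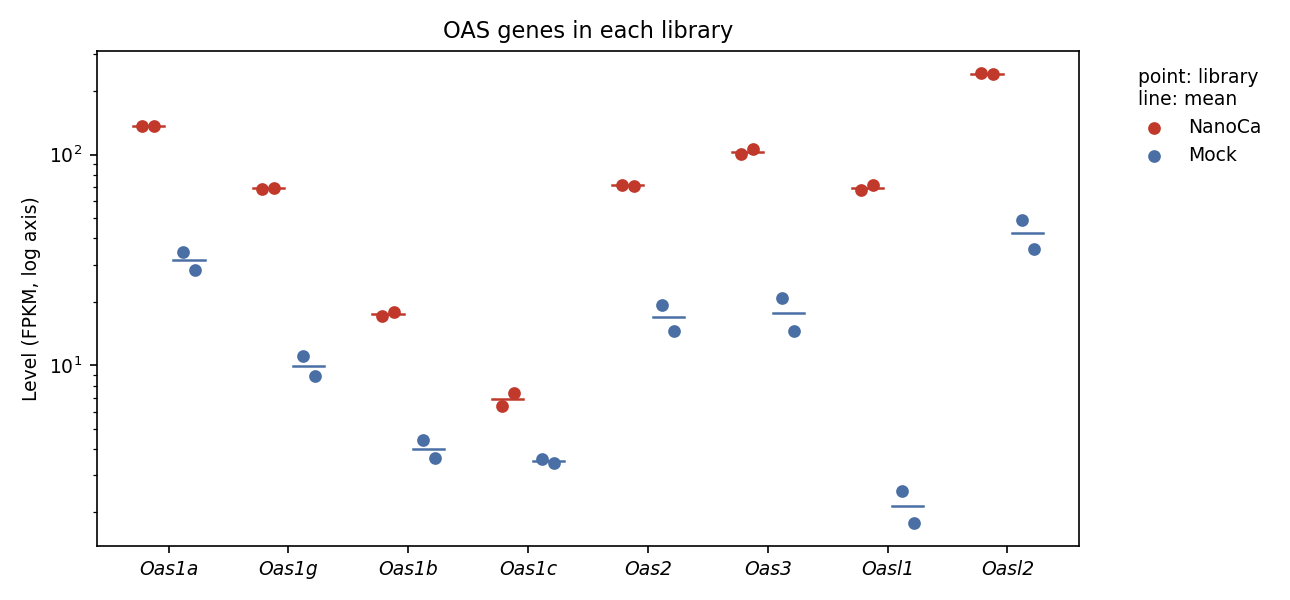
Level of each OAS gene in FPKM on a log axis, with 2 NanoCa and 2 Mock libraries as points and the mean of each group as a line. All 8 OAS genes are higher in NanoCa, and Oasl1 moves the furthest (67.7 and 71.4 FPKM against 2.52 and 1.78 FPKM).

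The promoter stretches of 5 members are shown first, because the same ISRE letters recur near the start sites of several family members. Each is the 120 bases before the annotated start site, 5′ to 3′ on the strand of the gene, from the RefSeq promoter table of GRCm38.p6 (the expression table uses GRCm39, and no coordinates were carried between the builds). Capitals mark matches on either strand to the ISRE core, GAAA repeated after a gap of any 2 bases. All lie on chromosome 5: Oas1a at chr5:120907526-120907645 (minus strand), Oas1g at chr5:120887614-120887733 (minus), Oas1c at chr5:120812515-120812634 (minus), Oas3 at chr5:120777660-120777779 (minus) and Oasl1 at chr5:114923120-114923239 (plus).
Oas1a: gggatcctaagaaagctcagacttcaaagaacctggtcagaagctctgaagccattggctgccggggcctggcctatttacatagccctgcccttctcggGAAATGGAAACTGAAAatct
Oas1g: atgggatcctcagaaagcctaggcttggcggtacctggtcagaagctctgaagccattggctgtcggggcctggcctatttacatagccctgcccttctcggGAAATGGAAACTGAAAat
Oas1c: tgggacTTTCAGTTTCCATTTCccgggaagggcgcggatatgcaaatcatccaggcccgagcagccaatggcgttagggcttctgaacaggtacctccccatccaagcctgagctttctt
Oas3: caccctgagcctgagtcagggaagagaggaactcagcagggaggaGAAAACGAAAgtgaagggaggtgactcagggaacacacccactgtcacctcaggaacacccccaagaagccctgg
Oasl1: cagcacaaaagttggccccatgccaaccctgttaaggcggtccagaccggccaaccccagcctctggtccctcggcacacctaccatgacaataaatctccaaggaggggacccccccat

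Promoter entries were found for 6 of 8 members, and the search covered the 250 bases before each start site. The ISRE core was in 4 of these 6 windows, in 2.98% of all 32851 windows of the same length. In Oas1a, Oas1g and Oas1c, 2 overlapping cores formed a longer match with 3 GAAA runs, which 30 of the 32851 windows held. The same 16 letters, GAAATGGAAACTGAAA, stood 20 to 5 bases before the Oas1a start and 18 to 3 bases before the Oas1g start. In the Oas1c window they read on the opposite strand, 114 to 99 bases before the start. The Oas3 core lay 75 to 66 bases before the start. No core was in the window of Oasl1 or Oasl2, which says only that these letters are not there. A GAS match (TTCNNNGAA, the interferon gamma-activated site), found in 7.02% of all windows, was in that of Oas1a alone among the 6. The Oas1a and Oas1g windows shared a longest run of 56 identical bases. These matches describe letters and not binding.

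Among the OAS1 genes, Oas1a and Oas1g encode active small synthetases in the mouse. Oas1a was at 137 and 137 FPKM in NanoCa, against 34.5 and 28.4 FPKM in Mock. Both NanoCa libraries stood well above both Mock libraries, 4.35-fold between the means (log2 fold change 2.09, SE 0.086, adjusted p = 6.86e-06). Oas1g had 68.4 and 69.7 FPKM in NanoCa and 11.0 and 8.87 FPKM in Mock. Its NanoCa libraries had an SD of 0.926 FPKM around a mean 6.94-fold that of Mock, with a log2 fold change of 2.68 (SE 0.092, adjusted p = 3.62e-06). The Oas1a to Oas1g ratio was 1.997 and 1.97 in NanoCa and 3.13 and 3.20 in Mock, lower in both NanoCa libraries than in either Mock library.

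The division of reads between these paralogs is uncertain. In the GENCODE M21 transcripts, 57.6% of the 50-base windows of Oas1a recur exactly in Oas1g, and 54.1% of those of Oas1g recur in Oas1a. How the authors' counting treated reads that match both is not given in the sources used here. Summed, Oas1a and Oas1g were at 205 and 207 FPKM in NanoCa and at 45.6 and 37.3 FPKM in Mock, a 4.97-fold difference between means. Their pooled reads, 18464 in NanoCa and 4625 in Mock, differed 4.96-fold in rate (exact 95% interval 4.80 to 5.12, counting error only). That ratio does not depend on which of the pair a counted read was given to. Its interval leaves out the difference between the libraries of a group. Oas2, Oasl1 and Oasl2 shared no such window with any other gene, and Oas3 shared 0.792% of its windows.

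Oas1b is the flavivirus resistance gene of the mouse, intact in wild-derived animals and cut short by a stop codon in most laboratory strains, and RefSeq lists it as a transcribed pseudogene in C57BL/6J. It stood at 17.1 and 17.98 FPKM in NanoCa, against 4.41 and 3.63 FPKM in Mock. The groups were clearly apart, on 754 and 753 reads for NanoCa against 252 and 180 for Mock (4.37-fold; log2 fold change 1.89, SE 0.082, adjusted p = 8.38e-06). Oas1c had 6.404 and 7.39 FPKM in NanoCa and 3.59 and 3.43 FPKM in Mock. It was the least changed member, at 1.96-fold, with NanoCa libraries that spread more than the Mock pair (log2 fold change 0.81, SE 0.077, adjusted p = 2e-04). Of its 50-base windows, 16.3% recur in other genes, most often in Oas1e. The other 4 Oas1 genes of the table were near silent. Oas1d had 4 reads in NanoCa and 1 in Mock, Oas1e and Oas1h had 1 read each, all in NanoCa, and Oas1f had 0 in every library.

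Oas2 and Oas3 encode the larger synthetases, with repeated enzyme units, and in human cells OAS3 is the main source of 2-5A. Oas2 was at 71.9 and 71.2 FPKM in NanoCa and at 19.4 and 14.5 FPKM in Mock. The NanoCa libraries lay within 1 FPKM of each other and the Mock libraries did not, with a 4.23-fold difference between means (log2 fold change 2.03, SE 0.12, adjusted p = 2.74e-05). Oas3 had 100.2 and 106 FPKM in NanoCa, against 20.8 and 14.5 FPKM in Mock. Its fold was 5.85, and the spread between the Mock libraries gave it the largest SE of the family (log2 fold change 2.50, SE 0.15, adjusted p = 2.83e-05).

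Oasl1 and Oasl2 encode OAS-like proteins with ubiquitin-like tails. Mouse OASL1 has lost synthetase activity and holds back the translation of Irf7 mRNA, while mouse OASL2 makes 2-5A. Oasl1 was at 67.7 and 71.4 FPKM in NanoCa, against 2.52 and 1.78 FPKM in Mock. In NanoCa it stood at the level of Oas2 and Oas1g, on 6910 reads, while in Mock it was the lowest member, below Oas1c, on 269 reads. The read rates differed 31.9-fold (exact 95% interval 28.2 to 36.2, counting error only), with a log2 fold change of 4.49 (SE 0.11, adjusted p = 1.45e-06), the 11th largest of 11116. The antisense transcript Gm13822 overlaps an exon of Oasl1 in GENCODE M21 and was at 7.95 and 7.99 FPKM in NanoCa and at 0.371 and 0.107 FPKM in Mock. Without a stated strand setting, reads of the overlap cannot be assigned to one of the genes. Oasl2 was the most abundant member, at 243 and 241 FPKM in NanoCa and 49.0 and 35.6 FPKM in Mock. Its NanoCa libraries had an SD of 1.94 FPKM and its Mock libraries an SD of 9.49 FPKM, around means 5.72-fold apart (log2 fold change 2.51, SE 0.13, adjusted p = 1.9e-05).

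**Figure D2:**
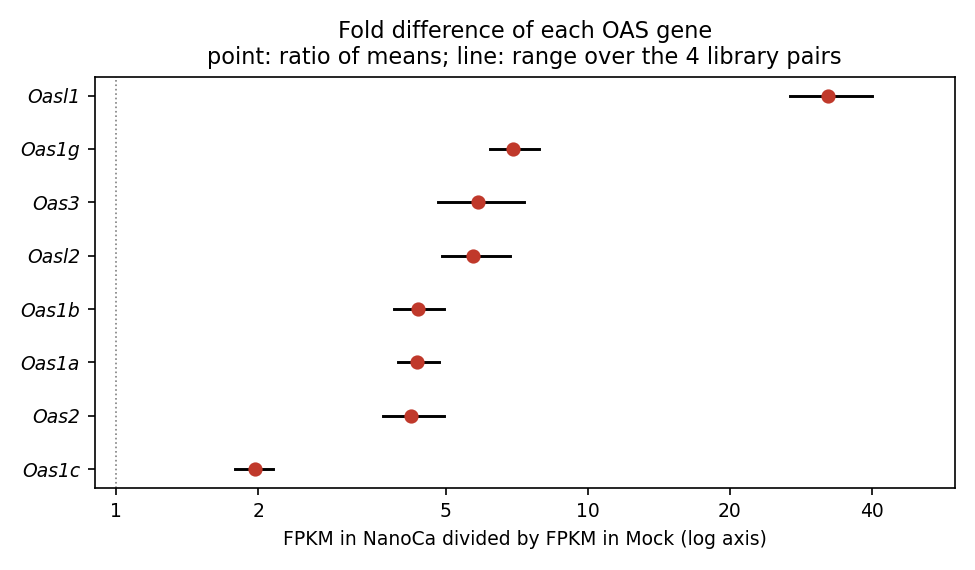
Ratio of FPKM in NanoCa to FPKM in Mock for each OAS gene on a log axis. Points are ratios of means and lines span the ratios of the 4 pairs of 1 NanoCa with 1 Mock library. The line of Oasl1 (26.8 to 40.2) and that of Oas1c (1.78 to 2.16) overlap no other.

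Oasl1 rose the most and Oas1c the least, with the other 6 between them. Taking each NanoCa library against each Mock library, the Oasl1 ratio ran from 26.8 to 40.2 and did not meet that of Oas1g, next in order, at 6.19 to 7.86. From Oas1g through Oas3, Oasl2, Oas1b and Oas1a to Oas2 (6.94-fold to 4.23-fold), each range overlapped the next, and Oas1c, at 1.78 to 2.16, lay below Oas2 (3.68 to 4.96). These ranges also hold the difference between the Mock libraries, which members share, so neighbours were also compared as the ratio of their FPKM within each library. The ratio of Oas1g to Oas3 was 0.683 and 0.656 in NanoCa and 0.531 and 0.612 in Mock, and that of Oasl2 to Oas1b was 14.2 and 13.4 in NanoCa and 11.1 and 9.80 in Mock. Both ratios were higher in each NanoCa library than in either Mock library, as were those of Oasl1 to Oas1g and of Oas2 to Oas1c. For Oas3 with Oasl2, Oas1b with Oas1a and Oas1a with Oas2 the groups overlapped. These ratios are given as a description. An exact two-sided permutation test on 2 libraries against 2 cannot go below p = 0.333, and no model was fitted to the ratios.

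**Figure D3:**
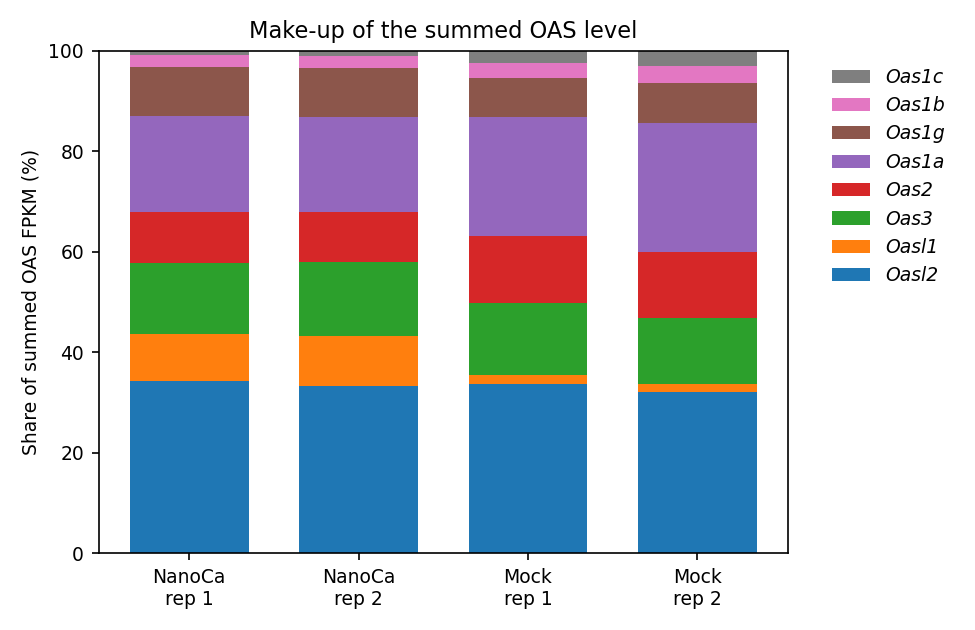
Share of each gene in the summed FPKM of the 8 OAS genes, as stacked bars for 2 NanoCa and 2 Mock libraries. The orange band, Oasl1, takes 9.51% and 9.90% in NanoCa and 1.74% and 1.61% in Mock, while the blue band of Oasl2 takes 32.2% to 34.2% of the bar in all 4.

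Summed over the family, the level was 712 and 722 FPKM in NanoCa and 145 and 111 FPKM in Mock, a 5.60-fold difference between means. The share of each gene in that sum is free of any common scaling factor. Oasl1 made up 9.70% ± 0.274 in NanoCa and 1.67% ± 0.0920 in Mock (SD, n = 2 each). The share of Oas1a was 19.1% ± 0.132 in NanoCa and 24.7% ± 1.34 in Mock, and that of Oas2 was 9.98% ± 0.173 in NanoCa and 13.2% ± 0.165 in Mock. Oas1g made up 9.64% ± 0.0331 in NanoCa and 7.81% ± 0.288 in Mock. Oas1b and Oas1c were small parts of the sum in both groups, at 2.45% and 0.962% in NanoCa and at 3.16% and 2.78% in Mock. For Oasl2, the largest share, the libraries overlapped between the groups, with 34.2% and 33.3% in NanoCa and 33.7% and 32.2% in Mock. Oas3 overlapped too, at 14.1% and 14.7% in NanoCa and 14.3% and 13.1% in Mock.

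The Mock libraries differed from each other in the OAS genes, and the NanoCa libraries less, for all members but Oas1c. The Oas1c ratio of read rate, replicate 1 to replicate 2, was 0.866 in NanoCa and 1.05 in Mock. In Mock, replicate 1 was above replicate 2 for all 8 members, by ratios of read rate from 1.05 for Oas1c to 1.44 for Oas3. The exact 95% interval of that ratio lay above 1 for 6 members, and for Oas1b (0.998 to 1.48) and Oas1c (0.869 to 1.26) it included 1. Over all genes tested the median ratio in Mock was 0.995, and 2.03% of genes were at or above the family median of 1.29. In NanoCa the ratios ran from 0.866 to 1.01, and none of the 8 intervals lay wholly above 1, while those of Oas3 (0.919 to 0.968) and Oasl1 (0.903 to 0.993) lay below it. The Mock difference was not particular to the OAS genes. In Mock replicates 1 and 2, Irf7 was at 16.2 and 11.9 FPKM, Zbp1 at 23.3 and 17.7 FPKM and Dhx58 at 15.45 and 11.97 FPKM. Other pathway genes, such as Irf3 (12.8 and 15.1 FPKM) and Mavs (16.3 and 17.3 FPKM), went the other way. Granulocyte markers differed between the Mock libraries in the sense opposite to the OAS genes. S100a9, a granulocyte calcium-binding protein, was at 115 FPKM in Mock replicate 1 and 225 FPKM in Mock replicate 2. Without Mock replicate 1, the log2 fold changes of the family were 0.83 to 4.67, and without Mock replicate 2 they were 0.78 to 4.32.

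**Figure D4:**
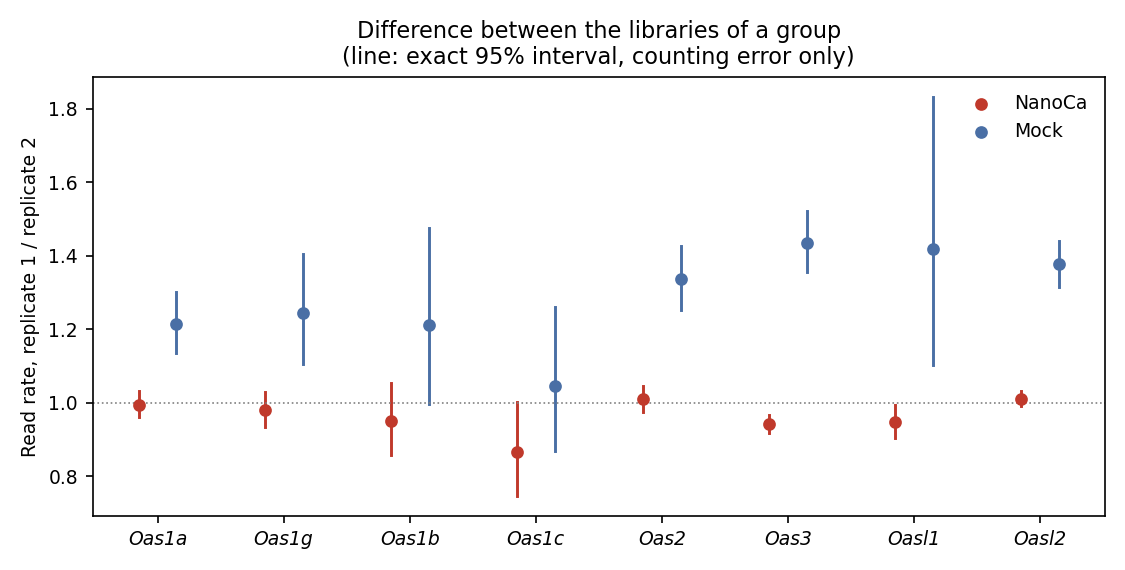
Ratio of the read rate in replicate 1 to that in replicate 2, within NanoCa and within Mock, for the 8 OAS genes, with exact 95% intervals for counting error. All 8 OAS points of Mock lie above 1, up to 1.44 for Oas3, and those of NanoCa lie between 0.866 and 1.01.

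Of 3 genes of 2-5A turnover, 2 fell and 0 rose, a share near the background, since 49.7% of all genes were called lower (5.78% by at least 2-fold). With median-of-ratios scaling 1 of the 3 was called lower, beside 32.6% of all genes. Akap7, an anchoring protein whose mouse form has a domain that degrades 2-5A, fell to 5.06 and 5.37 FPKM in NanoCa, against 11.9 and 12.1 FPKM in Mock. That is a log2 fold change of -1.07 (SE 0.053, adjusted p = 1.35e-05). Abce1, a ribosome recycling factor also known as an inhibitor of the 2-5A pathway, fell slightly (log2 fold change -0.20, adjusted p = 0.0048), but median-of-ratios scaling ended that call (-0.01, adjusted p = 0.801). Pde12, a phosphodiesterase that breaks down 2-5A, was at 2.92 and 2.79 FPKM in NanoCa and 3.14 and 3.32 FPKM in Mock and did not pass the test (log2 fold change -0.13, adjusted p = 0.125). It passed as lower with limma-voom on recovered reads (adjusted p = 0.0344).

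**Figure D5:**
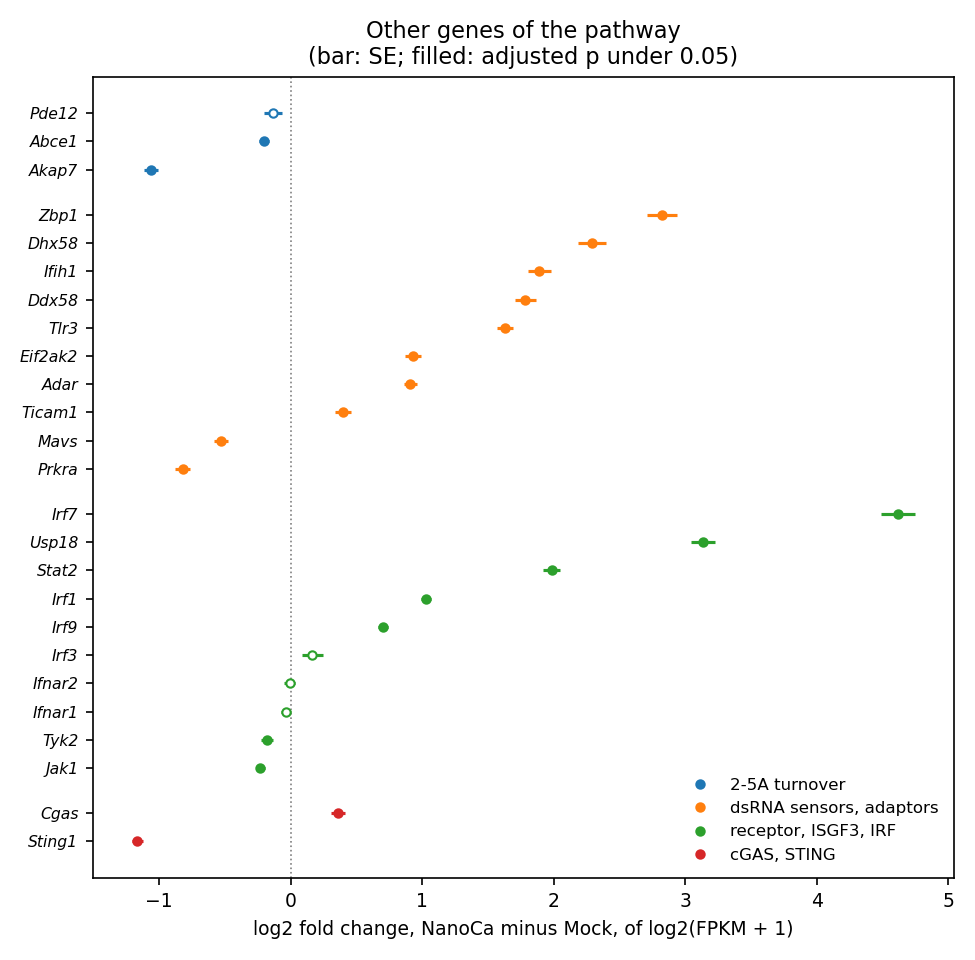
Log2 fold change, NanoCa minus Mock, on log2(FPKM + 1), of the 25 other pathway genes in 4 lists, with SE as bars and filled points for an adjusted p under 0.05. Irf7 is the highest at 4.62, and Sting1 is the lowest at -1.17.

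Other sensors of double-stranded RNA and their adaptors included 8 genes of 10 that rose and 2 that fell, where 21.7% of all genes were called higher and 49.7% lower. The median log2 fold change was 1.28 over the list and -0.17 over all genes. Zbp1, a sensor of left-handed nucleic acids, rose by 2.82. The RIG-I-like receptor genes Dhx58 (2.29), Ifih1 (MDA5; 1.89) and Ddx58 (RIG-I; 1.78) rose too, as did Tlr3, the endosomal receptor (1.63). Eif2ak2, which encodes the kinase PKR that also halts protein synthesis, was at 69.7 and 66.5 FPKM in NanoCa and 37.5 and 33.1 FPKM in Mock. Its log2 fold change was 0.93 (SE 0.064, adjusted p = 5.11e-05). Adar, an editor of double-stranded RNA (0.91), and Ticam1, the Tlr3 adaptor (0.40), rose less. Mavs, the adaptor of the RIG-I-like receptors (-0.53), and Prkra, an activator of PKR (-0.82), fell.

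Of 10 genes of the interferon receptor, ISGF3 and the IRF family, 5 rose and 2 fell, and the other 3 missed the threshold, again beside 21.7% higher and 49.7% lower of all genes. With median-of-ratios scaling 8 were higher and 0 lower, beside 33.4% and 32.6% of all genes. Irf7, a transcription factor for interferon genes whose translation OASL1 limits, was at 353 and 379 FPKM in NanoCa and 16.2 and 11.9 FPKM in Mock (log2 fold change 4.62). The Irf7 to Oasl1 ratio was 5.22 and 5.31 in NanoCa and 6.43 and 6.71 in Mock. Usp18, a brake on the receptor (3.14), the ISGF3 genes Stat2 (1.98) and Irf9 (0.70), and Irf1 (1.03) rose. The kinases Jak1 (-0.23, adjusted p = 0.00187) and Tyk2 (-0.18, adjusted p = 0.0154) were called lower, and neither passed with median-of-ratios scaling. The receptor chains Ifnar1 (-0.03) and Ifnar2 (-0.01) and the sensor-activated factor Irf3 (0.16) did not pass the test, and with that scaling all 3 passed it as higher. Ifnb1, which encodes interferon beta, was counted 82 and 63 times in NanoCa, against 2 and 1 times in Mock. Cgas, a DNA sensor with the same enzyme fold as the OAS proteins, rose slightly (0.36), and Sting1, which receives its product, fell (-1.17).

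The 2 OAS clusters lie on chromosome 5, and their neighbours were read in RefSeq gene order. Next to Oasl2 and Oasl1 stood 4930519G04Rik, at 0 FPKM in all 4 libraries, and 2210016L21Rik, at 5.34 and 5.18 FPKM in NanoCa and 4.90 and 5.56 FPKM in Mock (log2 fold change 0.01, adjusted p = 0.916). Beside the larger cluster, which runs from Oas2 to Oas1d, Rasal1, Dtx1 and Rph3a stayed under the filter. Ptpn11, which encodes the phosphatase SHP2, was at 19.6 and 20.2 FPKM in NanoCa and at 23.1 and 23.7 FPKM in Mock and was called lower (log2 fold change -0.23, SE 0.042, adjusted p = 0.00355). Within the larger cluster the silent genes Oas1e, Oas1f and Oas1h lay between members that rose, and the near-silent Oas1d lay at its end, next to Oas1a.

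The genes outside the family with the closest pattern to each member were taken as the 2 with the smallest Euclidean distance over the 4 libraries, on log2(FPKM + 1) centred on each gene's mean. For Oasl1 these were Ifit3b (distance 0.133) and Irf7 (0.137). Ddx60, a helicase gene, and Gm12250 were the nearest to both Oas1a (0.0417 and 0.0409) and Oas2 (0.0698 and 0.121). Oas1g was nearest to Ube2l6, the ISG15-conjugating enzyme (0.131), and Plk2 (0.137), and both Oas3 (0.180) and Oasl2 (0.129) were nearest to the GTPase gene Ifi47. Second came Ms4a6b for Oasl2 (0.139) and Cox6a2 for Oas3 (0.191). Cox6a2 was a low gene, at 0.425 and 0 FPKM in Mock replicates 1 and 2. The nearest gene to Oas1b was Gm45418 (0.0215), ahead of the class I gene H2-T22 (0.0464). Gm45418 was also low in Mock, at 1.287 and 0.971 FPKM, where adding 1 FPKM shrinks differences. Its ratio of means was 6.015, against 4.365 for Oas1b. Oas1c had Oit3 (0.0422) and Card19 (0.0527) as nearest genes, with log2 fold changes of 0.83 and 0.80. With 4 libraries in 2 groups, genes with a like difference between groups lie close on this measure.

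Markers of other cell types also differed between the groups, and their counts stand beside 21.7% of all genes called higher and 49.7% called lower. The macrophage list (6 of 6 genes tested, 4 higher and 1 lower) summed to 1305 to 1342 FPKM in NanoCa and 748 to 754 FPKM in Mock. The dendritic cell list (6 of 11 tested, all 6 lower) summed to 1585 to 1674 FPKM in NanoCa and 2628 to 2662 FPKM in Mock. Most of that sum came from the MHC class II pathway genes Cd74, H2-Aa and H2-Ab1. These were at 777, 380 and 351.5 FPKM in NanoCa replicate 1 and at 1253, 722 and 542 FPKM in Mock replicate 1. Granulocyte markers (5 of 8 tested, all 5 lower) summed to 50.7 to 62.9 FPKM in NanoCa and 227 to 416 FPKM in Mock. Mast cell and basophil markers (3 of 5 tested, 0 higher and 2 lower) summed to 2.48 to 2.60 FPKM in NanoCa and 9.53 to 15.4 FPKM in Mock. Of 4 plasmacytoid dendritic cell markers, 2 were tested and both were higher, but the defining gene Siglech was at 0 in both NanoCa libraries and at 0.212 and 0.140 FPKM in Mock, and the list summed to 12.9 to 14.3 FPKM in NanoCa and 6.47 to 7.18 FPKM in Mock. B, T and NK cell markers were under 1 FPKM throughout, with Ncr1 at 0 in all libraries. In bulk RNA, fewer cells of a type and less RNA per cell cannot be told apart, and the part of these shifts in the OAS result was not tested.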

How the data were processed

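Libraries were made from trizol-extracted RNA, and the labels' protocols name a SMARTER kit for mRNA. The authors deposited FPKM values for 55487 genes, built on GRCm39 per the submitters' processing notes. The sources used here name no aligner, counter or strand setting. Replicate 3 equalled 1.0011 (NanoCa, 21557 genes) or 1.001876 (Mock, 22162 genes) times the mean of replicates 1 and 2 (tolerance 1e-06) and was left out of the main test. Whole reads, gene lengths and library totals were recovered from the steps of the FPKM values for 23928 of 23929 genes (tolerance 1e-06), giving 99.99% of each total. One read in 1 kilobase was worth 0.0321 to 0.0439 FPKM. Genes with a mean of at least 1 FPKM (11116) entered limma (version 3.58.1, R version 4.3.3) as log2(FPKM + 1) (lmFit, eBayes with trend, two-sided, Benjamini-Hochberg over all genes, threshold 0.05), a scale that understates changes of low genes. On data simulated for this comparison (11110 genes run), 88% of 50 genes changed 1.5-fold and 100% of 50 changed 2-fold were recovered, and 14 of 10910 unchanged genes were called. The simulation gave every gene the same small spread and changed few genes. In the real data 71.3% of genes were called, and the Mock libraries differed 1.44-fold in Oas3. The simulated rates therefore do not describe the test on the real libraries. Intervals are exact and cover counting error only. The labels give 1 batch. Named genes were all members, the genes of the pathway lists, the 2 nearest-pattern genes per member and the chromosomal neighbours. Gm13822 (overlap with Oasl1), Xist, the Y-linked genes and Ifnb1 were added after their values were seen. A few genes of these lists and neighbours are not reported here and were left out of list counts. Members, lists and tests were chosen with earlier results of these data known.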

Additional observations from a re-analysis of the deposited data

How the results depend on the processing

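All 8 OAS genes kept their direction and passed the test under each of 12 alternatives (96 of 96 results): pseudocounts of 0.1 and 0.01, no filter, a mean of at least 5 FPKM, median-of-ratios scaling, quantile normalization, limma-voom on recovered reads, each of the 4 libraries left out, and a replicate block. They also passed with the 3 deposited columns per group, which cannot show stability, since replicate 3 holds no new sample. Oasl1 ranged from 4.32 to 5.03 and Oas1c from 0.72 to 1.02 (log2). A library left alone in its group was assumed to vary like the others. Of the 25 other pathway genes, 18 kept direction and call under those 12. Median-of-ratios scaling called 3717 genes higher and 3620 lower in NanoCa, against 2409 and 5520 as deposited, and shifted the all-gene median log2 difference from -0.17 to -0.003. It turned the sign of Pde12 (0.0125), Ifnar1 (0.16), Ifnar2 (0.18) and Tyk2 (0.0029). Quantile normalization turned Pde12 (0.0949) and Ifnar2 (0.11), and leaving out 1 library moved Ifnar2 between -0.0432 (without NanoCa replicate 1) and 0.0268 (without NanoCa replicate 2). The Tyk2 call was also lost with quantile normalization and without NanoCa replicate 1 or Mock replicate 2, and Irf3 passed under 5 of the 12. Same-numbered libraries deviated together only weakly (correlation 0.133 over tested genes, 2 pairs), so the numbers were not taken to pair them. The replicate block called 8229 genes, against 7929 without it, and 8 of 8 members. Depth limits Oas1d, Oas1e, Oas1f and Oas1h, with 0 to 4 reads per library.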
